A study of Mus musculus with 2 samples.

Results

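Mast cells and basophils were picked out of 2 single-cell RNA libraries from the gingiva (gum tissue) of C57BL/6 mice, prepared from infiltrating immune cells in a study of experimental periodontitis. Each library came from 1 genotype, labelled Otud1-/- for the first and WT for the second, and each was made with 10x Genomics 3′ chemistry, which reads transcripts from their 3′ ends and counts each original molecule once by a unique molecular identifier (UMI), with a barcode for the cell. Otud1 encodes a deubiquitinase of the ovarian tumour family. The sources used here do not give the number of animals per library, their age and sex, any treatment, or which part of Otud1 was deleted. A barcode was kept when it held 200 genes or more and mitochondrial UMIs made up 15% or less, and it counted as a member if the UMIs of 5 genes together (Cpa3, Mcpt4, Tpsb2, Cma1 and Mcpt8) reached at least 5. Members were split into mast cells, in which the sum of Mcpt4, Tpsb2 and Cma1 exceeded Mcpt8, and basophils, in which Mcpt8 was higher. The rule found 214 members among 19705 kept barcodes. The library labelled Otud1-/- gave 35 of 6936 barcodes and the WT library 179 of 12769. All 35 members of the library labelled Otud1-/- and 177 of those of the WT library were mast cells by this rule, against 0 and 2 basophils.

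Mast cells are long-lived tissue cells that store histamine, heparin-like proteoglycan and proteases in granules and release them when antigen cross-links IgE on the high-affinity Fc receptor. In mice, those of connective tissue carry the chymases Mcpt4 and Cma1, tryptases and carboxypeptidase A3, whereas those of mucosal epithelium carry Mcpt1 and Mcpt2. Basophils are short-lived blood granulocytes that share the IgE receptor, Hdc and Gata2 with mast cells but carry Mcpt8 in place of the chymases. Gingival mast cells lie mainly in the connective tissue beneath the epithelium, near vessels.

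The promoter windows of 3 of the genes that set the rule are shown. Their transcripts helped choose the members and were among the highest in ratio to other cells. Mcpt4 is a gene on the minus strand at chr14:56059629-56062313, Cma1 lies on the minus strand at chr14:55941451-55944675, and Cpa3 on the minus strand at chr3:20215620-20242181 (GENCODE annotation, mouse build GRCm38). Each window runs from 250 bases before to 50 bases after the start of transcription, on the strand of the gene and from 5′ to 3′, and was taken from RefSeq, build GRCm38.p6. Mcpt4 was read at chr14:56062261-56062560, Cma1 at chr14:55944626-55944925 and Cpa3 at chr3:20242132-20242431, all on the minus strand. Capitals mark the letters GATAA, or TTATC where the motif lies on the other strand, the core that GATA factors bind.
Mcpt4: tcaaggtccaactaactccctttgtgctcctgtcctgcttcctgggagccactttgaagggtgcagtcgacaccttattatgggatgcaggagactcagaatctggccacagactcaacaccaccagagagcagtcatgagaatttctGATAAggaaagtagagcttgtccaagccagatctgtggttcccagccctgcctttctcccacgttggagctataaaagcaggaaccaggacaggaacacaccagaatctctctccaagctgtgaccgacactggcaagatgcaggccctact
Cma1: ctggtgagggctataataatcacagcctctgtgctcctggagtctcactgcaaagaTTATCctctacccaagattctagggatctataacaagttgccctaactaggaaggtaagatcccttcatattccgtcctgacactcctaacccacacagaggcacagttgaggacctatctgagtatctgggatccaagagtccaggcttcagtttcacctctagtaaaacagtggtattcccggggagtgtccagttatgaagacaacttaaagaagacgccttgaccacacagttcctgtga
Cpa3: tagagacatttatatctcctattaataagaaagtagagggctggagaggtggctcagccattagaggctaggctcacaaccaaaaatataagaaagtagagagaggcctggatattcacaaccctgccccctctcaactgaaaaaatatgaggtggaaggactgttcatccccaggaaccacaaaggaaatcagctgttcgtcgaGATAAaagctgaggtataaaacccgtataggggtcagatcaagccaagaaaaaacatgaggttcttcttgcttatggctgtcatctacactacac
Each of these windows held 1 match. Of 32851 windows of the same length in the table, 8347 (25.4%) held at least 1 match on either strand, so a match in any single window is common. Gata2, which encodes a GATA factor that mast cells and basophils both need, was itself found in the member cells, as given further on.

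Markers of other lineages were found in the mast cells of both libraries, in unequal shares. Panels of 5 genes each for B cells, T cells, neutrophils, macrophages, natural killer (NK) cells and plasmacytoid dendritic cells were summed in every member, and at least 5 UMIs of any panel was counted. In the library labelled Otud1-/-, 19 of 35 mast cells (54.3%) passed this mark for another lineage, against 56 of 177 (31.6%) in the WT library. The NK panel accounted for 10 of the 19 and for 0 of the 56, whereas the B cell panel was passed by 6 and 31 cells, the T cell panel by 2 and 18, and the macrophage panel by 0 and 17. The mast cells that passed no panel numbered 16 in the library labelled Otud1-/- and 121 in the WT library. Non-members named below by a panel passed that panel and no other. Values below are for all mast cells unless said otherwise, and those for the mast cells without another lineage's panel, which differ for many genes, follow together after the comparison with other cells.

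A group of 9 of the 35 mast cells in the library labelled Otud1-/- held Cma1 and none of Cpa3, Mcpt4 or Tpsb2. Together they held 60 Cma1 UMIs, or 1.82% of the Cma1 UMIs of the 35 cells. Kit, the receptor for stem cell factor, Fcer1a and Ms4a2, subunits of the IgE receptor, Hdc, the histamine-forming enzyme, and Gata2 were all at 0 UMIs in these 9 cells. They held instead 675 UMIs of Gzma, 95 of Gzmb, 55 of Prf1 and 1794 of Ccl5, which encode killing granule proteins and a chemokine of cytotoxic lymphocytes. These made up 96.3% of all Gzma UMIs and 97.2% of all Ccl5 UMIs in the mast cells of that library. All 9 passed the NK panel. Of the 177 WT mast cells, 1 also held Cma1 alone, with 5 Cma1, 29 Gzma and 264 Ccl5 UMIs. This WT cell passed no panel, so it remained among the mast cells without another lineage's panel. The label mast cell therefore went against the markers in these 10 cells, which are called by their rule alone. It was also weakly borne out in others. Among members that passed a panel, 12 in the library labelled Otud1-/- and 11 in the WT library held none of Kit, Fcer1a, Ms4a2, Hdc and Gata2. The 12 include the 9 cells with Cma1 alone.

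Most of the remaining members carried the full protease set. All 4 of Cpa3, Mcpt4, Tpsb2 and Cma1 were found in 23 of 35 mast cells of the library labelled Otud1-/- and in 156 of 177 of the WT library. At least 1 of Kit, Fcer1a, Ms4a2, Hdc and Gata2 was found in 23 of 35 and in 156 of 177. In the library labelled Otud1-/-, Mcpt4 ranged from 0 to 445 UMIs a cell with a median of 45, Cma1 from 1 to 486 with a median of 33, Cpa3 from 0 to 256 with a median of 15, and Tpsb2 from 0 to 152 with a median of 13. In the WT library, Mcpt4 ranged from 0 to 374 UMIs with a median of 23, Cma1 from 0 to 334 with a median of 10, Cpa3 from 0 to 161 with a median of 8, and Tpsb2 from 0 to 108 with a median of 7. Cells with more Cma1 also held more of the other 3 transcripts in the plot of UMIs per cell, where cells of 1 library differ in depth as well.

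**Figure D1:**
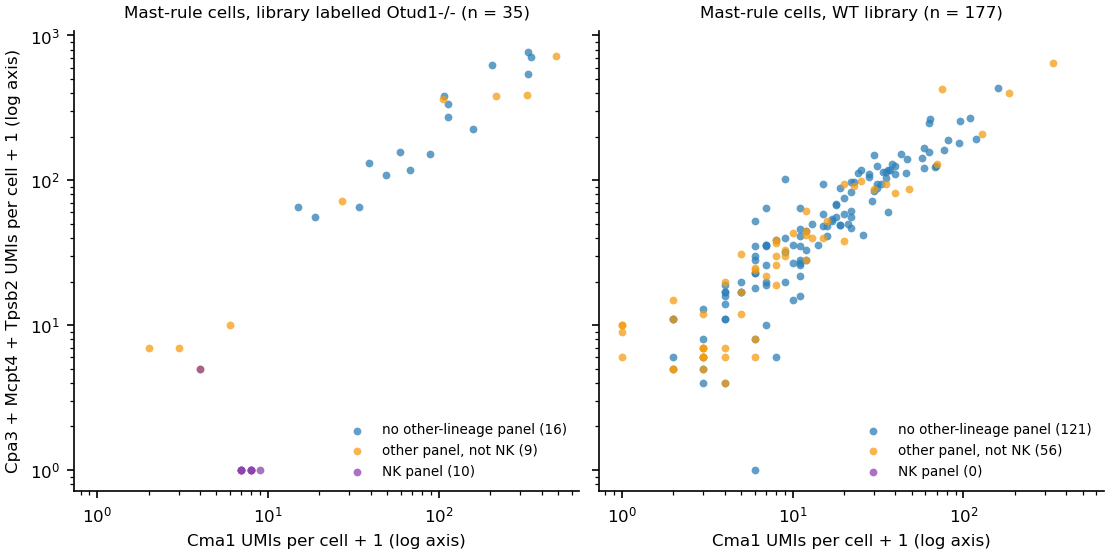
Each point is 1 mast cell by the rule, in the library labelled Otud1-/- on the left (n = 35) and the WT library on the right (n = 177); the horizontal axis gives Cma1 UMIs and the vertical axis the summed Cpa3, Mcpt4 and Tpsb2 UMIs per cell, each plus 1 on a log axis, and the colour marks a panel of another lineage with at least 5 UMIs. The 9 cells with Cma1 alone lie on the bottom edge at the left and carry the NK panel.

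The cells nearest the threshold differed from those far above it. Between 5 and 7 rule UMIs there were 11 members in the library labelled Otud1-/- and 16 in the WT library, and 11 and 8 of them passed another lineage's panel. Just outside, at 3 or 4 rule UMIs, there were 16 and 19 cells, of which 12 and 8 passed such a panel. With at least 100 rule UMIs there were 17 and 54 cells, and 4 and 12 of them passed one. No barcode sat at 5 rule UMIs exactly in the library labelled Otud1-/-, and 6 did in the WT library. Of the 3 to 4 UMI cells, 15 and 9 held Cma1 alone.

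The word basophil in the working name rested on 2 cells, both in the WT library. The library labelled Otud1-/- had 0 of 6936 kept barcodes, which allows a share of up to 0.0433% when 0 is set to 3 counts (exact 95% upper bound 0.0532%), and the WT library had 0.0157% (exact 95% interval 0.0019 to 0.0566, counting error only). The first of the 2 cells held 3647 UMIs, with 9 of Cpa3 and 1 of Mcpt8 and none of the mast cell chymases or tryptase. The other held 1252 UMIs, with 6 of Mcpt8 and 1 of Cpa3. Both held Hdc (4 and 3 UMIs) and Gata2 (1 and 1), the histamine-forming enzyme and the GATA factor that basophils and mast cells share. Both held Ifitm1 (9 and 5 UMIs), Cyp11a1 (1 and 3), Ccl3 (14 and 11) and Ccl4 (27 and 17). Neither held a UMI of Fcer1a, Ms4a2, Prss34 or Kit, and only the second held more than 1 UMI of Mcpt8. With 2 cells in 1 library, no gene comparison is given for basophils.

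Mast cells by the rule made up 0.505% of kept barcodes in the library labelled Otud1-/- (exact 95% interval 0.352 to 0.701) and 1.39% in the WT library (1.191 to 1.604). These intervals cover counting error only, and with 1 library per genotype a difference between genotypes cannot be told apart from a difference between libraries. Without the cells that passed another lineage's panel the shares were 0.231% and 0.948%. At a rule of at least 10 UMIs the share was 0.317% in the library labelled Otud1-/-. The median mast cell held 3951 UMIs in the library labelled Otud1-/- and 1579 in the WT library, against 4343 and 2325 in all other kept cells. Without other lineages' panels the medians were 2735 and 1274. A doublet score in the highest range expected for the loading was found in 0 of 35 and 28 of 177 mast cells. Xist UMIs were found in 0 of 35 and 68 of 177 mast cells, and Y-linked UMIs in 23 of 35 and 67 of 177. The libraries thus differed in the sex make-up of their mast cells by these transcripts, which cannot be told apart from genotype, and 20 WT mast cells held both. Of the 37 barcodes that the 2 libraries shared, 0 were members.

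Against all other kept cells, mast cells stood out by granule proteases, the IgE receptor, amine storage and a chemokine pair. UMIs were summed over the cells of a group and scaled to CPM, the count relative to all UMIs of the group, and log2 ratios were formed after adding 1 CPM to both sides, which understates ratios for genes near 0 in other cells. Genes with at least 20 UMIs, or 20 expected, in the mast cells were compared and those at least 2-fold apart were counted, without a test. In the library labelled Otud1-/-, 251 of 1423 genes (17.6%) were higher and 168 (11.8%) lower. In the WT library, 355 of 3501 (10.1%) were higher and 215 (6.14%) lower. The median log2 ratio over all compared genes was 0.05 in the library labelled Otud1-/- and -0.08 in the WT library. The rule chose the cells by expression, so all ratios to other cells are descriptions.

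The granule proteases led both lists. Mcpt4 reached 24138 CPM (exact Poisson 95% interval 23382 to 24913) in mast cells of the library labelled Otud1-/-, against 1.17 CPM in its other cells, and 16310 CPM (15931 to 16697) in mast cells of the WT library, against 4.68 CPM. Cma1 reached 20691 against 3.68 CPM and 9303 against 5.21 CPM. Cpa3, which trims peptides after chymase cuts, reached 10656 against 0.468 CPM and 6145 against 1.67 CPM. Tpsb2, a tryptase, reached 6882 against 0.586 CPM and 4798 against 1.58 CPM. These 4 genes set the rule. Of the 16 granule protease genes listed, 10 could be compared in the library labelled Otud1-/- and 9 were higher and 1 lower, with a median log2 ratio of 8.83. The lower one was Ctsc, which activates granule proteases in many leukocytes, and Gzmb, a granzyme, was among the higher ones, with the NK panel cells described above included. In the WT library 9 of 11 were higher and 0 lower, with a median of 7.71. Tpsg1, a membrane-anchored tryptase, stood at 256 against 0.229 CPM there. Tpsab1, the other mast cell tryptase, stood at 921 CPM in the library labelled Otud1-/- and 848 CPM in the WT library. How the counting assigned reads of similar protease genes, such as Tpsb2 and Tpsab1, was not tested. Serpinb1a, an inhibitor of neutrophil-type serine proteases, was higher in mast cells, at 2144 against 82.8 CPM in the library labelled Otud1-/- and 1450 against 50.9 CPM in the WT library.

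The mucosal proteases were at or near 0 UMIs. Mcpt1 and Mcpt9 had 0 UMIs in the mast cells of both libraries, which allows up to 18.8 CPM in the library labelled Otud1-/- and 6.97 CPM in the WT library. Mcpt2 had 0 UMIs and 1 UMI. Mcpt8, the basophil protease, had 0 UMIs in mast cells of the library labelled Otud1-/- and 5 UMIs in 5 cells of the WT library. Prss34, a tryptase-like protease known from basophils and some mast cells, had 46 UMIs in 4 cells and 24 UMIs in 10 cells, against 2 and 1 UMIs in all other kept cells. A single cell held 63.0% of the Prss34 UMIs in the library labelled Otud1-/-, and another 41.7% of those in the WT library. Ctsg, a chymase relative, had 17 UMIs in 3 cells and 28 UMIs in 15 cells.

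**Figure D2:**
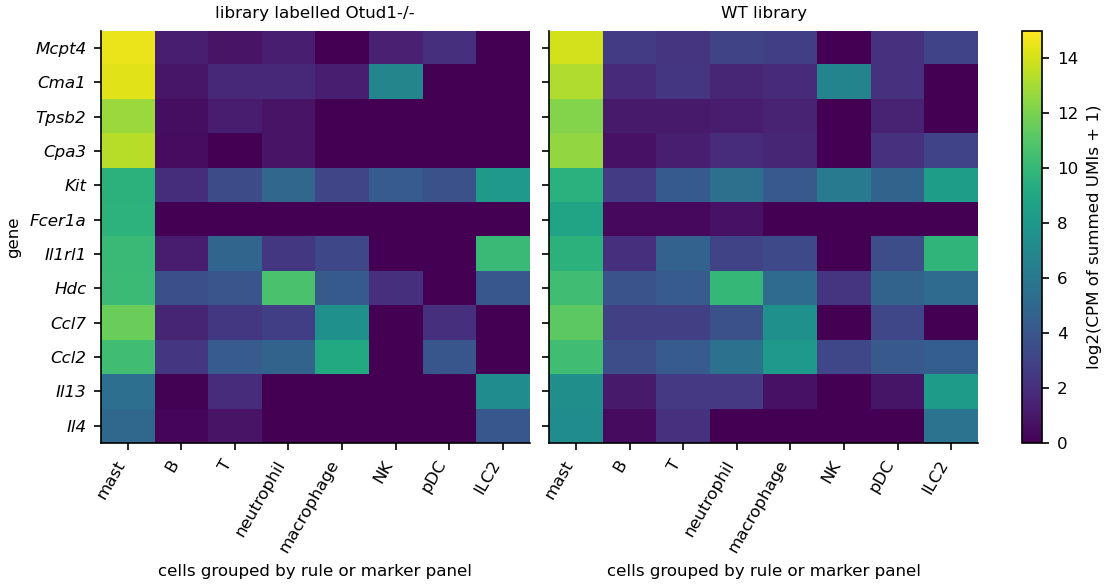
Level of 12 genes, as log2(CPM of summed UMIs + 1), in mast cells by the rule and in cells that passed the panel of another lineage (pDC, plasmacytoid dendritic cells; ILC2, group 2 innate lymphoid cells), for the library labelled Otud1-/- on the left and the WT library on the right. The 4 rule genes and Fcer1a stand out in mast cells, Cma1 is also seen in NK panel cells (116 and 110 CPM), Hdc in neutrophil panel cells, and Kit and Il13 in ILC2 cells, which were picked by Gata3 and Il1rl1 UMIs. Panel cells were non-members that passed no other panel, and ILC2 cells passed none.

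Receptors that tie mast cells to IgE, stem cell factor and neuropeptides were next. Fcer1a, the IgE-binding chain, stood at 821 CPM (687 to 974) in mast cells of the library labelled Otud1-/-, against 1 UMI in all its other cells, and at 437 CPM (377 to 504) in mast cells of the WT library, against 16 UMIs in its other cells. Ms4a2, the signalling beta chain of the same receptor, stood at 307 and 158 CPM in mast cells. Fcer1g, the gamma chain that many myeloid and NK cells share, was 2.92-fold higher in mast cells of the library labelled Otud1-/- than in other cells and 1.64-fold higher in those of the WT library. Kit stood at 802 CPM in mast cells of the library labelled Otud1-/-, against 12.5 CPM in other cells, and at 767 against 21.7 CPM in the WT library. Il1rl1, the receptor for interleukin-33, stood at 1103 against 9.09 CPM and at 790 against 14.2 CPM. Mrgprb1 and Mrgprb2 encode mouse Mrgpr receptors, of which Mrgprb2 senses basic peptides and some drugs. Mrgprb1 stood at 1254 against 0.141 CPM in the library labelled Otud1-/- and at 927 against 0.596 CPM in the WT library. Mrgprb2 had 44 UMIs in mast cells of the library labelled Otud1-/- and 0 in its other cells, at least 3925-fold higher when other cells are set to 3 UMIs, and 92 against 10 UMIs in the WT library. Adora3, an adenosine receptor that enhances degranulation in rodents, stood at 188 against 1.29 CPM and at 193 against 0.482 CPM.

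Detection per cell was read after thinning every cell to 750 UMIs, since depth differed. Kit was found in 14 of 35 thinned mast cells in the library labelled Otud1-/- (20 of 35 before thinning) and 86 of 177 in the WT library (123 of 177 before). In cells that passed the B cell panel, which should lack it, Kit was found in 0.189% and 0.651% after thinning. Fcer1a was found in 28.6% and 22.0% of thinned mast cells, against 0 of 3183 (exact 95% upper bound 0.116%) and 1 of 3070 B cell panel cells. Median depths were 3951 and 1579 UMIs in mast cells and 3962 and 3121 in B cell panel cells. Among mast cells without another lineage's panel, thinned Kit was found in 12 of 16 and 69 of 121 cells, and thinned Fcer1a detection was 56.2% and 29.8%.

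The genes of the IgE receptor and its signalling varied widely in their ratio to other cells. Of 22 genes listed for the receptor and its signalling, 11 were compared in the library labelled Otud1-/- with 6 higher and 1 lower (median log2 ratio 1.14), and 16 in the WT library with 3 higher and 0 lower (median 0.43). Without other lineages' panels, 4 of 4 were higher in the library labelled Otud1-/- (median 5.87) and 8 of 13 in the WT library (median 1.03). Over all genes compared in those cells, 32.5% and 17.9% were higher. A gene low in other cells passed the UMI minimum only where it was high in mast cells, so these counts follow partly from the filter. Fcer1a, Ms4a2 and Lat2, an adaptor of the receptor, were the 3 higher ones over all WT mast cells. Lat2 stood at 282 against 68.9 CPM in the library labelled Otud1-/- and at 328 against 69.1 CPM in the WT library. Syk, the kinase that the receptor recruits, stood at 201 against 277 CPM and at 172 against 247 CPM. Lyn, the kinase upstream of it, stood at 94.0 against 239 CPM and at 158 against 280 CPM.

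Genes of amine and proteoglycan storage were higher. Of the 18 listed, 5 were compared in the library labelled Otud1-/- and 4 were higher (median log2 ratio 3.38), and 8 were compared in the WT library and 7 were higher (median 3.51), with 0 lower in either. Hdc stood at 1216 against 274 CPM in the library labelled Otud1-/- and at 1348 against 85.6 CPM in the WT library. Cells that passed the neutrophil panel held more Hdc than other non-members, at 1674 and 1036 CPM. Slc18a2, the vesicular transporter that loads histamine and serotonin, stood at 376 against 1.78 CPM and at 353 against 2.82 CPM. Tph1, which starts serotonin synthesis, stood at 414 against 0.422 CPM and at 246 against 0.138 CPM. Hs6st2, a heparan sulphate sulphotransferase that is not in the list, stood at 301 against 0.117 CPM and at 239 against 0.161 CPM. Srgn, the core protein of granule proteoglycan, was high in many myeloid cells and was 1.64-fold and 1.39-fold higher in mast cells.

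Of the exocytosis genes, Rab27b and Cd63 were higher in both libraries. Rab27b, a granule-docking GTPase, stood at 313 against 1.97 CPM in the library labelled Otud1-/- and at 216 against 3.37 CPM in the WT library. Cd63, a granule membrane tetraspanin that reaches the surface on degranulation, stood at 1041 against 80.9 CPM and at 669 against 77.4 CPM. Of 20 genes in this list, 3 were compared in the library labelled Otud1-/- with 2 higher, and 10 in the WT library with 3 higher, Stx3 being the third. Among eicosanoid genes, Hpgds, the prostaglandin D2 synthase of haematopoietic cells, stood at 163 against 33.2 CPM and at 172 against 35.2 CPM. Ptgs2, the inducible cyclooxygenase, had 0 UMIs in mast cells of the library labelled Otud1-/- and 11 UMIs in the WT library, where other cells stood at 141 CPM and mast cells at 25.6 CPM. The enzyme Cyp11a1, which starts steroid synthesis, stood at 652 against 0.539 CPM and at 434 against 0.757 CPM.

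Cytokine transcripts were led by chemokines of monocytes. Of 27 genes listed, 10 were compared in the library labelled Otud1-/- with 4 higher and 4 lower (median log2 ratio -0.40), and 17 in the WT library with 7 higher and 4 lower (median 0.60). The list also holds Adora3, given above, which is counted among the higher ones in both libraries. Ccl7 and Ccl2 both attract monocytes through Ccr2. Ccl5 is not in the list, and 97.2% of its UMIs in mast cells of the library labelled Otud1-/- lay in the 9 cells with Cma1 alone. Ccl7 reached 3109 CPM (2841 to 3395) in mast cells of the library labelled Otud1-/-, against 31.0 CPM in other cells, and 2349 CPM (2206 to 2498) in the WT library, against 66.6 CPM. Ccl2 reached 1329 against 71.5 CPM and 1355 against 77.7 CPM. Among the panel classes the highest Ccl7 levels outside mast cells were in cells that passed the macrophage panel, at 185 and 181 CPM. Ccl7 ranged from 0 to 45.4 UMIs per 1000 UMIs of a cell in the library labelled Otud1-/- (median 0.182) and from 0 to 27.8 (median 0.784) in the WT library. Without other lineages' panels the medians were 2.98 and 1.24, so the order of the libraries turned round. Csf1, a growth factor for macrophages and osteoclast precursors, stood at 232 against 55.1 CPM and at 230 against 26.6 CPM.

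The type 2 cytokines were found in a minority of mast cells. Il4 had 5 UMIs in 5 of 35 mast cells in the library labelled Otud1-/- and 66 UMIs in 28 of 177 in the WT library, where 1 cell held 19.7% of them. Il13 had 7 UMIs in 6 cells and 75 UMIs in 41 cells. Il4 stood at 153 CPM in WT mast cells, against 0.963 CPM in other cells, and Il13 at 174 against 3.83 CPM. Cells with Gata3 and Il1rl1 UMIs and no Cd3 UMI, as in group 2 innate lymphoid cells, held 297 CPM of Il13 and 50.7 CPM of Il4 in the WT library. Il5 and Il9 had 0 UMIs in the mast cells of both libraries. Tnf was at 184 CPM in WT mast cells, 2.63-fold higher than in other cells. Inflammatory transcripts of neutrophils and macrophages were lower, with Cxcl2 at 526 against 2628 CPM and 906 against 2066 CPM, and Il1b at 401 against 1672 CPM and 198 against 1248 CPM.

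Immediate early genes, which are switched on within minutes of a stimulus and also by tissue dissociation, were high in mast cells. Of 19 listed, 8 of 18 compared were higher and 1 lower in the library labelled Otud1-/- (median log2 ratio 0.69), and 9 of 19 were higher and 0 lower in the WT library (median 0.91). Egr1 stood at 464 against 117 CPM in the library labelled Otud1-/- and at 1422 against 160 CPM in the WT library. Fosb stood at 997 against 125 CPM and at 1039 against 184 CPM. Jun stood at 514 against 134 CPM and at 1276 against 163 CPM. Btg2, an antiproliferative member of the list, was 3.56-fold lower in mast cells of the library labelled Otud1-/- and 1.52-fold lower in the WT library. Whether handling of the tissue had a part in these values was not tested.

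Among transcription factors, Gata2 was higher in mast cells of both libraries. Gata2 stood at 150 CPM against 0.398 CPM in the library labelled Otud1-/- and at 163 against 0.459 CPM in the WT library. Tal1, a partner of GATA factors in blood cells, had 9 UMIs in mast cells of the library labelled Otud1-/- and 24 in those of the WT library, too few to compare in the first. Meis2, a homeobox factor, had 14 and 43 UMIs. Mitf, which drives mast cell protease and Kit expression, had 18 UMIs in 10 mast cells and 19 UMIs in 15. Gata1 had 1 UMI in each library. Of 28 factors listed, 4 of 8 compared were higher and 1 lower in the library labelled Otud1-/-, and 4 of 17 were higher and 1 lower in the WT library. In the library labelled Otud1-/- the other higher ones were Irf8, Runx1 and Bhlhe40, and without other lineages' panels 1 factor could be compared there and it was lower. Inhibitory and paired receptors were described from a list of 22 genes, of which 1 of 4 compared was higher in the library labelled Otud1-/-, and 6 of 16 were higher and 1 lower in the WT library. Cd200r3, an activating paired receptor of mast cells and basophils in mice, stood at 226 against 0.398 CPM and at 244 against 0.275 CPM. Lilrb4a, an inhibitory receptor, stood at 320 against 263 CPM and at 418 against 165 CPM.

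**Figure D3:**
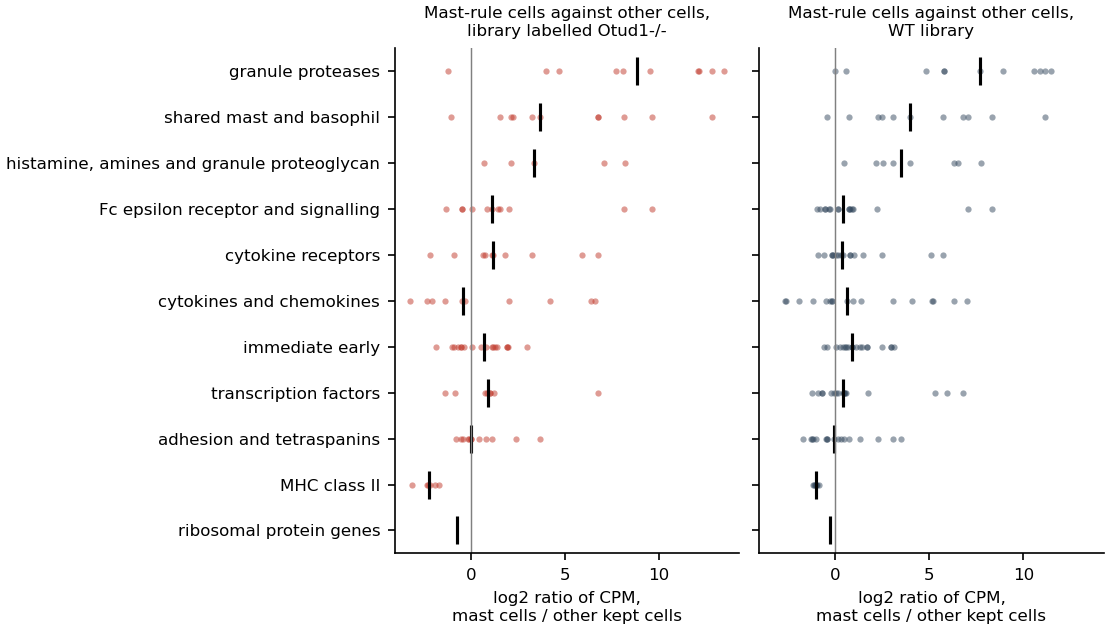
Each point is 1 compared gene of the list named on the left, at its log2 ratio of CPM in mast cells over other kept cells of the same library, with the library labelled Otud1-/- on the left and the WT library on the right; black ticks mark list medians, and for ribosomal protein genes only the median is drawn. Granule protease medians lie at 8.83 and 7.71 and class II MHC medians at -2.22 and -1.04.

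Genes of antigen presentation and several genes of neutrophils and macrophages were lower in mast cells. The macrophage panel summed to 25.1 against 547 CPM in the library labelled Otud1-/-, but to 985 against 1120 CPM in the WT library. In the WT library 1 of its 5 genes was at least 2-fold lower (median log2 ratio -0.09), and 1 cell held 153 of its 424 UMIs. In the library labelled Otud1-/- the lowest ratios were those of Cxcl9 (0 UMIs in mast cells, 155 CPM in other cells), C1qa (0 UMIs, 150 CPM), Lyz2 (7 UMIs), Ms4a6c (1 UMI), Ifitm3 (6 UMIs) and Plac8 (8 UMIs). Of 7 class II MHC genes, all 6 that could be compared were lower in the library labelled Otud1-/- (median log2 ratio -2.22) and 5 of 7 in the WT library (median -1.04). H2-Aa stood at 859 against 4202 CPM and at 1961 against 4065 CPM. In the WT library the lowest ratios were those of Ngp (0 UMIs in mast cells, 72.9 CPM in other cells), Tlr2 (1 UMI), Lcn2 (1 UMI), S100a8 (23 UMIs), Chil3 (1 UMI) and Retnla (2 UMIs), which are neutrophil, myeloid or macrophage genes. S100a8, a subunit of calprotectin, stood at 1680 against 4146 CPM in the library labelled Otud1-/- and at 53.4 against 1601 CPM in the WT library. Cell cycle genes were low. Of 12 listed, 2 of 3 compared were lower in the library labelled Otud1-/- and 4 of 6 in the WT library, where Mki67 stood at 9.29 against 118 CPM. Ribosomal protein genes had median log2 ratios of -0.73 and -0.29, with 4 of 80 and 0 of 81 at least 2-fold lower.

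Leaving out the mast cells with another lineage's panel left fewer genes to compare and larger shares of them apart. In the library labelled Otud1-/-, 157 of 483 compared genes (32.5%) were higher and 151 (31.3%) lower, and in the WT library 336 of 1876 (17.9%) and 214 (11.4%). Mcpt4 then reached 52090 CPM in the library labelled Otud1-/- and 24852 CPM in the WT library. Mcpt4 UMIs were found in 16 of 16 and 119 of 121 such cells. In the same cells Kit stood at 1477 CPM in the library labelled Otud1-/- and 1091 CPM in the WT library, and Hdc at 2374 and 2040 CPM. Ccl7 stood at 6710 and 3608 CPM, and Jun at 1477 and 1636 CPM. Each of these levels was above that of all mast cells. The neutrophil and macrophage cytokines were lower than over all mast cells in the library labelled Otud1-/-, with Il1b at 56.1 CPM there and 204 CPM in the WT library, and Cxcl2 at 93.5 and 477 CPM. The list medians were 13.01 and 9.37 for granule proteases, with 7 of 7 and 8 of 9 higher, and 1.05 and 1.76 for cytokines, with 3 higher and 3 lower of 6, and 8 higher and 3 lower of 14. Immediate early genes were higher for 9 and lower for 3 of 14 compared in the library labelled Otud1-/-, and higher for 12 of 19 in the WT library. Ribosomal protein genes were at least 2-fold lower for 67 of 79 and 0 of 80. Panels of other lineages did not vanish from the WT cells. The 5 B cell genes summed to 37.4 CPM (2 UMIs in 2 of 16 cells) in the library labelled Otud1-/- and to 458 CPM (94 UMIs in 51 of 121 cells) in the WT library, and the T cell panel to 18.7 and 506 CPM. Plasmacytoid dendritic and NK panels were at 0 in the library labelled Otud1-/- and at 112 and 19.5 CPM in the WT library. A panel of 5 epithelial genes, not used to leave out cells, summed to 187 against 31.3 CPM in the library labelled Otud1-/-. All 10 UMIs there were of Krt4, in 7 of 16 cells, and Krt5, Krt14, Krt13 and Epcam were at 0. In the WT library the panel stood at 312 against 22.3 CPM, with 24 of its 64 UMIs in 1 cell and Krt13 at 0. Erythroid, fibroblast and endothelial panels were lower than in other cells in both libraries. Of the eosinophil panel, 8 of 9 genes had 0 UMIs in these mast cells of the library labelled Otud1-/- and 7 of 9 in those of the WT library. Over all mast cells the numbers were 8 of 9 and 5 of 9.

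Between the libraries, mast cells of the library labelled Otud1-/- were set against mast cells of the WT library, for genes with at least 50 UMIs in the higher library. Of 1159 genes, 30 (2.59%) lay 2-fold or more above the WT level and 78 (6.73%) 2-fold or more below it, with a median log2 ratio of -0.01. The highest 4 ratios were those of S100a8 (1680 against 53.4 CPM), Gzma (4394 against 142 CPM), S100a9 (2727 against 195 CPM) and Nkg7 (1128 against 81.3 CPM), which are neutrophil and cytotoxic lymphocyte genes. The lowest 4 were those of C1qa, C1qc, Wfdc2 and Mmp12, all at 0 UMIs in the library labelled Otud1-/- and at 142, 93, 71 and 53 UMIs in the WT library. C1qa, C1qc and Mmp12 are macrophage genes and Wfdc2 an epithelial one. Of the WT UMIs, 40.1% of C1qa, 41.9% of C1qc and 59.2% of Wfdc2 came from 1 cell each. In the 16 cells without other lineages' panels, Gzma and Nkg7 were at 0 UMIs and S100a8 at 6 UMIs. In that narrower set, 32 of 537 genes (5.96%) were higher and 96 (17.9%) lower, with a median log2 ratio of -0.15, and the highest 4 were Jmjd1c, Emp3, Ctla2a and Cd81, at 1.73, 1.59, 1.57 and 1.55 on the log2 scale. The lowest 4 were Ccl5, Ifi27l2a, Wfdc2 and Cd79a, all at 0 UMIs in the library labelled Otud1-/-. Of the 301 Ccl5 UMIs in the WT cells of this set, 264 came from the 1 cell with Cma1 alone. Cd79a belongs to the B cell panel, which was used to leave out cells.

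Of the mast cell identity genes, 1 of 9 compared lay 2-fold or more above the WT level over all mast cells (median log2 ratio 0.43), and 4 of 9 did without other lineages' panels (median 0.86). Those 1 and 4 were rule genes, which chose the cells, so their ratios are descriptions only. Over all mast cells Cma1 was at 2.22-fold and Mcpt4 at 1.48-fold, and without the panels Cma1 was at 2.87-fold, Cpa3 at 2.31-fold, Mcpt4 at 2.10-fold and Tpsb2 at 2.09-fold. Genes outside the rule varied. Fcer1a was 1.88-fold higher over all mast cells (95% interval 1.49 to 2.36, counting error only) and 2.75-fold higher without the panels (2.10 to 3.58). Kit was at 1.05-fold (0.846 to 1.29) over all mast cells and 1.35-fold (1.03 to 1.76) without the panels. Hdc was at 0.902-fold (0.763 to 1.06) and 1.16-fold (0.946 to 1.42), intervals that include no difference. Il1rl1 was 2.01-fold higher without the panels (1.601 to 2.513). Of the amine and proteoglycan genes, 0 of 5 lay 2-fold apart over all mast cells and 1 of 4, Tph1, was higher without the panels. Ribosomal protein genes stood lower in the same cells, with 34 of 79 at least 2-fold lower and a median log2 ratio of -0.88, and 4 of 4 class II genes were lower with a median of -2.36. The summed rule genes had a median of 123 UMIs per 1000 UMIs of a cell in the 16 cells and 45.1 in the 121 cells, with ranges of 40.8 to 172.6 and 1.202 to 176.8 that overlap over all of the first. The depth of the cells and the B and T cell panel levels given above moved with these ratios, and their part was not tested. Cma1 made up 42.6 of every 100 UMIs of Cma1 and Mcpt4 in the 16 cells and 35.2 in the 121 cells.

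Several cytokine and immediate early transcripts were lower in the library labelled Otud1-/-, and others in these lists were not. Of the cytokine list, 1 of 12 lay 2-fold or more above the WT level and 4 below it over all mast cells (median log2 ratio -0.39), and 0 and 4 of 9 without other lineages' panels (median -0.76). Il4 was at 31.3 CPM in mast cells of the library labelled Otud1-/- and 153 CPM in those of the WT library, a ratio of 0.204 (0.064 to 0.501). Il13 was at 43.9 and 174 CPM, a ratio of 0.252 (0.098 to 0.545). Without other lineages' panels these ratios were 0.186 (0.037 to 0.569) and 0.256 (0.068 to 0.690), on 3 and 4 UMIs in the library labelled Otud1-/-. After thinning, Il4 was found in 1 of 35 and 19 of 177 mast cells, in 1 of 16 (6.25%, exact 95% interval 0.158 to 30.2) and 16 of 121 (13.2%, 7.75 to 20.6) of those without the panels, and in 1 of 3183 and 0 of 3070 B cell panel cells. Of 18 immediate early genes compared, 0 reached 2-fold above the WT level and 4 lay 2-fold or more below it (median log2 ratio -0.65), and without other lineages' panels 0 of 17 were higher and 6 lower (median -0.63). Egr1 was at a ratio of 0.326 (0.253 to 0.416) over all mast cells and 0.525 (0.394 to 0.688) without the panels, and Fos at 0.264 (0.153 to 0.429) and 0.452 (0.251 to 0.760). Thinned Egr1 was found in 7 of 35 and 93 of 177 mast cells. Without the panels it was found in 9 of 16 in the library labelled Otud1-/- (56.2%, exact 95% interval 29.9 to 80.2). In the WT library it was found in 68 of 121 (56.2%, 46.9 to 65.2). The 16 cells are part of the 35, so the 9 and the 7 came from separate random draws. The 9 of 16 thus rests on a single draw and does not show equal detection. Jun was at 0.403 (0.316 to 0.509) over all mast cells, but at 0.903 (0.697 to 1.16) without the panels. Fosb did not follow, at 0.960 (0.796 to 1.15) and 1.70 (1.36 to 2.11). Lower detection in the library labelled Otud1-/- was also seen outside the mast cells. In thinned other kept cells Fos was found in 8.97% and 15.3%, Egr1 in 5.94% and 9.25%, Jun in 7.76% and 9.91%, and Fosb in 6.19% and 11.2%. The chemokines did not go with Il4, since Ccl7 was at 1.32-fold (1.19 to 1.48) and 1.86-fold (1.63 to 2.11), and Ccl2 at 0.981 (0.834 to 1.15) and 1.42 (1.19 to 1.69).

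**Figure D4:**
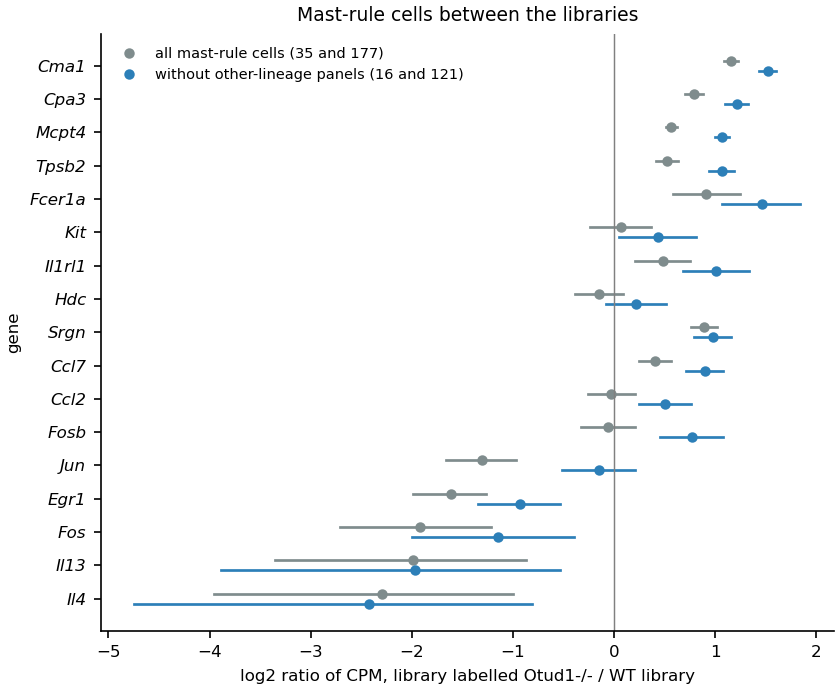
Points give the log2 ratio of CPM in mast cells of the library labelled Otud1-/- over mast cells of the WT library, and lines the exact 95% interval of the ratio (counting error only), for all mast cells (grey, 35 and 177 cells) and for those without another lineage's panel (blue, 16 and 121 cells). The 4 genes at the top chose the cells and lie right of 0 in both sets, Il4, Il13, Egr1 and Fos left of 0 in both, and Jun moves to near 0 in the narrower set.

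Otud1 itself, at chr2:19657752-19660583 on the plus strand, went against the label over all cells. Mast cells of the library labelled Otud1-/- held 6 Otud1 UMIs in 5 of 35 cells (37.6 CPM, 13.8 to 81.9) and those of the WT library 7 UMIs in 7 of 177 (16.3 CPM, 6.54 to 33.5). Without other lineages' panels it was found in 0 of 16 cells (exact 95% upper bound 20.6%) and 5 of 121, so all 6 UMIs in mast cells of the library labelled Otud1-/- lay in cells with another lineage's panel. After thinning it was found in 0 of 35 and 1 of 177. Other kept cells stood at 33.4 CPM in the library labelled Otud1-/- and 18.5 CPM in the WT library. A 3′ tag may lie outside the deleted part, which the labels do not give, so this does not check the genotype, and the libraries are named by their labels throughout. Of 14 OTU family deubiquitinases, 1 was compared between the libraries' mast cells and it was less than 2-fold apart. That gene was Tnfaip3, which encodes the NF-kB inhibitor A20 and stood at 370 CPM in the library labelled Otud1-/- and 367 CPM in the WT library.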

How the data were processed

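The 2 10x 3′ libraries of gingival immune cells, 1 per genotype, were analysed together with RefSeq promoter windows of build GRCm38.p6. The submitters' processing notes name build mm10, Seurat 3.2.3 and Cell Ranger 5.0.0, and per the file headers the matrices came from cellranger-6.0.1. What was deposited for each barcode is the UMI count of every gene, with no normalization. The libraries held 8109 (labelled Otud1-/-) and 13267 (WT) barcodes with 44083735 and 44878537 UMIs.

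The members, gene lists and settings were chosen with earlier results of these data known. UMIs were summed per group and scaled to CPM with Python 3.11.15, numpy 2.4.6, scipy 1.17.1 and pandas 2.3.3. With 1 library per genotype no test was run. CPM carries exact Poisson, shares exact Clopper-Pearson and ratios exact conditional binomial 95% intervals, all counting error only. The ratio intervals were tested on counts simulated without variation between cells, so that test does not cover such variation. A value of 0 was set to a floor of 3 counts for a bound. Log2 ratios used a prior of 1 CPM, and genes needed 20 UMIs (50 between libraries). Doublets were scored by simulating 2 artificial doublets per barcode and kept in the values given, and removing the highest scores at 0.8% per 1000 barcodes was an alternative. Named genes were the 12 highest and 6 lowest ratios to other cells, the 4 highest and 4 lowest between libraries, up to 6 members of each list by size of ratio and members at 0, and the rule genes and Otud1, leaving out predicted genes, receptor segments, sex-linked genes and haemoglobins. Other genes of a list and the cells with Cma1 alone were described after their values were seen. The gene comparisons fixed for basophils are not given, because the rule found 2 such cells. Alternatives were other UMI, gene and mitochondrial limits, doublet and panel removal, other totals, the mean of cells, leaving out each gene's highest cell, no minimum and another prior.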

Additional observations from a re-analysis of the deposited data

How the results depend on the processing

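No paired analysis was possible because each genotype had 1 library. Leaving out a library would end the comparison, so each gene's highest cell was left out instead. With that, 324 genes rather than 215 were lower in WT mast cells than in other cells, 159 rather than 251 were higher in mast cells of the library labelled Otud1-/-, and 16 rather than 30 were higher between the libraries. With no UMI minimum, which adds genes of few UMIs, 2051 and 4284 genes were higher and lower in mast cells of the library labelled Otud1-/-, 1787 and 2528 in WT mast cells, and 1986 and 3861 between the libraries. With other lineages' panels left out, 157 genes were higher in mast cells of the library labelled Otud1-/-, and the mast cell shares were 0.231% there and 0.948% in the WT library. The share in the library labelled Otud1-/- was 0.721% at 3 rule UMIs and 0.317% at 10. With the highest doublet scores removed, 49 rather than 78 genes were lower between the libraries. The log2 ratio of Gzma between libraries turned to -1.63 at 10 rule UMIs and -7.38 without panels, and that of Nkg7 to -5.40 and -6.30, but leaving out only the cells with Cma1 alone gave 1.52 and 1.23. Counting each named gene once per alternative, 178 ratios to other cells stayed close and 56 moved, and between the libraries 178 stayed close, 52 moved and 4 changed sign. With 35 cells in the library labelled Otud1-/-, transcripts of a few UMIs limit every comparison that uses it. The alternatives for gene counts in the library labelled Otud1-/- and between the libraries were chosen after seeing the data.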

Other observations

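Cma1 was also found outside the members, in cells with at least 5 UMIs of the NK panel and under 5 of every other panel. Of these non-members, 39 of 117 in the library labelled Otud1-/- held Cma1 (71 UMIs, 116 CPM, exact Poisson 95% interval 90.3 to 146), and 16 of 83 in the WT library (27 UMIs, 110 CPM, 72.2 to 159). Mcpt4 had 1 and 0 UMIs and Cpa3 0 and 0 UMIs in the same cells, whereas mast cells held more Mcpt4 than Cma1 UMIs in both libraries (3851 against 3301, and 7020 against 4004). Cells that passed the B cell panel held 0.840 and 2.67 CPM of Cma1.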
